A study of Mus musculus with 2 samples.

Results

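The tight junction genes examined were 7 claudins (Cldn1, Cldn3, Cldn4, Cldn5, Cldn7, Cldn10 and Cldn23), occludin (Ocln), ZO-1 (Tjp1) and JAM-A (F11r). They were taken from the deposited table by symbol, and 10 of 10 were found among its 14678 genes. The GO column of the table assigns 10 of 10 to the apical junction complex, a term that it gives to 70 genes.

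Tight junctions seal the space between neighbouring epithelial or endothelial cells near their apical side. Claudins are tetraspan membrane proteins that form the junction strands, and the claudins present set whether a junction acts as a barrier or as a selective pore for ions and water. Occludin spans the membrane as well, immunoglobulin adhesion proteins such as JAM-A join the cells beside the strands, and scaffolds such as ZO-1 tie these proteins to actin. In the uterus, the luminal epithelium is the surface that an embryo meets, and its junctions are known to be rebuilt in early pregnancy.

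Digital gene expression (DGE) profiling was used to count sequence tags per gene in mouse uterus at gestation day 2.5 (G2.5). Both groups were double transgenic littermates (VEGFtetO/tetO/beta-AKtg/wt), with tet operators in the VEGF promoter and a tetR-Krab repressor driven by the beta-actin promoter in the whole body. Dox+ mice ate doxycycline chow, which keeps the repressor off VEGF. Dox- mice were bred on the same chow and taken off it for several weeks before collection, and females of both groups were mated with VEGFtetO/tetO males. RNA of 3 uteri was pooled for each group and sequenced as 1 library, so no difference has a replicate check in the tag data. The diet and the repression of VEGF cannot be told apart. The study checked VEGF and other genes by qPCR, and it names none of the tight junction genes examined here among them. Levels are given in TPM, tags per 1000000 clean tags of a library without a correction for gene length. The table counts 4437506 tags in Dox+ and 4218459 in Dox-, out of 5985925 and 5844314 clean tags, which are the tags left after the quality filters of the authors. Vegfa, the repressed gene, had 247 copies in Dox+ and 125 in Dox-, a log2 ratio (Dox- over Dox+) of -0.95 with a 95% interval of -1.27 to -0.63. Hoxa11, a uterine stroma gene, had 2573 and 785 copies, and all 15 listed epithelial markers were found in the table.

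Promoter sequences are shown for 4 claudins of which Cldn1, Cldn3 and Cldn4 were lower and Cldn7 was higher in Dox-, because these genes changed most among those with enough copies. Each is the 250 bases before an annotated start site, 5′ to 3′ on the strand of the gene, from RefSeq on GRCm38.p6. The windows are chr16:26371840-26372089 (minus strand) for Cldn1, chr5:134985964-134986213 (plus strand) for Cldn3, chr5:134946935-134947184 (minus strand) for Cldn4 and chr11:69964529-69964778 (plus strand) for Cldn7. Capitals mark the GC box GGGCGG, the E-box CACCTG and the TATA box TATAAA, each searched on both strands. No matches overlap each other in these windows.
Cldn1: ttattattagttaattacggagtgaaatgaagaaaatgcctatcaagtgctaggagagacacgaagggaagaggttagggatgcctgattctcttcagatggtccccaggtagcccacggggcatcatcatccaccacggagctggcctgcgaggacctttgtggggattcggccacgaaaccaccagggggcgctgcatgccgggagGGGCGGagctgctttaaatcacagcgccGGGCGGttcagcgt
Cldn3: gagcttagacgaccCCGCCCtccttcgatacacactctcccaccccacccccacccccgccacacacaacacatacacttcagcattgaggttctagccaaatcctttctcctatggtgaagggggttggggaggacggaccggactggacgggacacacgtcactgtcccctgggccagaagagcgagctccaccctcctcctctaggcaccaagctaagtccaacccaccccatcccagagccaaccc
Cldn4: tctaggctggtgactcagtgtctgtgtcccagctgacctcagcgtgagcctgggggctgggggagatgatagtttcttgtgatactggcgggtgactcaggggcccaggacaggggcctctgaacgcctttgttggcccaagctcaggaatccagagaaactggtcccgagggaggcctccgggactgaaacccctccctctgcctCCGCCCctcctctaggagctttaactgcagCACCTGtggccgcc
Cldn7: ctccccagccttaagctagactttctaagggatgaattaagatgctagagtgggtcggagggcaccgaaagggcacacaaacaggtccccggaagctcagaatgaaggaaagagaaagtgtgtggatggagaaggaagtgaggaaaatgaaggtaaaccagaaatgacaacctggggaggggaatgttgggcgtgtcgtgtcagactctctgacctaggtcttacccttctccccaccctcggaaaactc

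The Cldn1 window held 2 GC boxes, at 42 to 37 and at 14 to 9 bases before the start site. The windows of Cldn3 and Cldn4 held 1 GC box each, and the Cldn4 window also held 1 E-box, at 14 to 9 bases before the start. None of the 3 motifs was found in the printed Cldn7 window. A second annotated start of Cldn7 has a window at chr11:69965171-69965420 with 2 E-boxes, 1 GC box and a G and C content of 60%, which is not printed because 174 of its bases lie in a transcript. Of 32851 promoter windows of the same length, 32.7% held a GC box, 17.2% an E-box and 12.4% a TATA box, so the GC boxes of Cldn1, Cldn3 and Cldn4 are a common feature. The G and C content was 55.6% for Cldn1, 60.8% for Cldn3, 62% for Cldn4 and 51.2% for the printed Cldn7 window, against a median of 52.4% over the windows. RefSeq windows were found for 9 of the 10 genes, and Cldn23 is named only.

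Cldn3 held the largest share of the claudin tags in the Dox+ library, and Cldn7 held most of them in the Dox- library. Cldn1, Cldn3 and Cldn4 fell by more than 2-fold in the Dox- library, while Cldn7 rose by more than 2-fold. Cldn10 rose and Cldn5 fell by less than 2-fold, and Tjp1 and F11r stayed under 1.5-fold. A gene was called when its combined copy number was at least 200, its fold change at least 1.5 and its FDR (Benjamini-Hochberg over the whole table) below 0.05 in the Audic-Claverie test, which takes counting error as the sole error and compares these libraries, not the conditions. Of the 10 genes, 8 had 200 copies or more. Among them 2 were called higher and 4 lower in Dox-, where 15.2% of all 6547 genes tested were called higher and 14.7% lower. At a fold change of at least 2, 1 was called higher and 3 lower, beside 4.61% and 5.62% of all genes tested. The 2 genes with fewer copies were Cldn23 and Ocln.

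**Figure D1:**
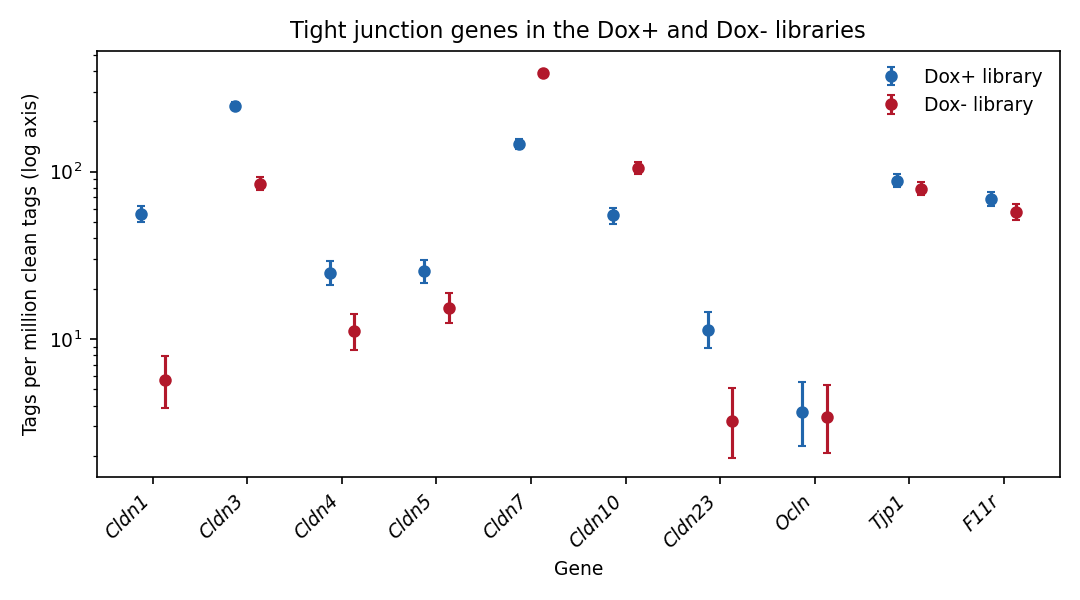
TPM (log axis) of the 10 genes in the Dox+ library (blue) and the Dox- library (red). Bars are exact 95% Poisson intervals of the copy number and cover counting error only. The blue and red intervals are apart for Cldn1, Cldn3, Cldn4, Cldn5, Cldn7, Cldn10 and Cldn23 and overlap for Ocln, Tjp1 and F11r.

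Cldn1 (NCBIM37 chromosome 16, 26356728 to 26371927, minus strand, 4 exons), a claudin of barrier-forming epithelia, showed the largest fold change of the 10 genes. It had 336 copies in the Dox+ library, or 56.1 TPM (95% interval 50.3 to 62.5). In the Dox- library it had 33 copies, or 5.65 TPM (3.89 to 7.93). Cldn1 was thus 9.94-fold lower (6.94 to 14.7) in Dox-. Its place among the genes with a tag went from percentile 82.4 in Dox+ to percentile 29.3 in Dox-.

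Cldn3 (chromosome 5, 135462084 to 135463342, plus strand) is a single-exon gene of a sealing claudin that is widely found in glandular and intestinal epithelia. It had 1482 copies in Dox+ and 494 in Dox-, or 247.6 and 84.5 TPM. The fold change was 2.93 (2.64 to 3.25), lower in Dox-. The longest exon overlap of Cldn3 with the lincRNA gene Wbscr25 on the opposite strand is 40 bases. The table has no row under that name, and the part of this overlap in the Cldn3 count was not tested. The neighbour of Cldn3, Cldn4 (135420996 to 135422804, minus strand), also a single-exon gene, encodes another sealing claudin and lies 39279 bases away. Cldn4 had 149 copies in Dox+ and 65 in Dox-, a fold change of 2.24 (1.66 to 3.04), lower in Dox-. The combined 214 copies of Cldn4 are just above the limit of 200. Per copy of Cldn4 there were 9.95 copies of Cldn3 in Dox+ and 7.60 in Dox-, and the interval of the change of this ratio, 0.557 to 1.06, includes 1.

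Cldn23 (chromosome 8, 36887766 to 36889613, minus strand), a less studied claudin, was low in both libraries. It had 68 copies in Dox+ and 19 in Dox-, or 11.4 and 3.25 TPM. The ratio was 3.49-fold lower in Dox- (2.08 to 6.16), and Cldn23 was not called because its 87 combined copies are under the limit. Without the limit on copies it was called lower.

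Cldn7 (chromosome 11, 69778281 to 69781387, plus strand), a claudin found in many simple epithelia and also along the lateral membrane, went the opposite way. It had 877 copies in Dox+ and 2263 in Dox-, or 146.5 and 387.2 TPM. The rise was 2.64-fold (2.44 to 2.86), and its percentile among genes with a tag went from 94.2 to 98.2. Cldn10 (chromosome 14, 119187093 to 119274711, plus strand) encodes pore-forming claudins that let ions pass. It rose from 327 to 615 copies, 1.93-fold (1.68 to 2.21), just under the fold change of 2. Cldn10 has 4 protein-coding transcripts in the annotation, and the table gives 1 count for the gene, so its isoforms cannot be told apart.

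Cldn5 (chromosome 16, 18776940 to 18778353, plus strand) is the main claudin of blood vessel endothelium. It had 152 copies in Dox+ and 90 in Dox-, or 25.4 and 15.4 TPM. The fold change was 1.65 (1.26 to 2.16), lower in Dox-. Of 15 listed endothelial markers 14 were in the table, and 11 of these were lower and 3 higher in Dox-, with 3 called lower and none higher among the 6 with 200 copies. Of all genes tested, 14.7% were called lower and 15.2% higher. The summed level of the endothelial markers was 421.0 TPM in Dox+ and 302.7 in Dox-, a ratio of 0.719 (0.676 to 0.764), and no defining marker of the 14 was at 0 in both libraries. Pecam1, the endothelial adhesion molecule CD31, had 243 and 253 copies, while Cdh5, the endothelial cadherin, fell from 446 to 216. Per copy of Cdh5, Cldn5 had 0.341 copies in Dox+ and 0.417 in Dox-, a change of 1.22 whose interval, 0.887 to 1.68, includes 1. Per copy of Pecam1 it had 0.626 and 0.356, a change of 0.569 (0.410 to 0.788). In whole uterus, fewer cells of a type and less RNA per cell cannot be told apart.

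Ocln, Tjp1 and F11r were not called. Ocln (chromosome 13, 101266462 to 101322673, minus strand), the tetraspan protein occludin, had 22 copies in Dox+ and 20 in Dox-. Its log2 ratio was -0.10 with an interval of -1.05 to 0.84, which still includes a 2-fold lower level, so a difference of that size was not detectable at this depth. Tjp1 (chromosome 7, 72441051 to 72516125, minus strand), the scaffold ZO-1 that binds claudin tails, had 528 and 462 copies, a log2 ratio of -0.16 (-0.34 to 0.02). F11r (chromosome 1, 173367666 to 173394734, plus strand), the adhesion protein JAM-A, had 410 and 335 copies, a log2 ratio of -0.26 (-0.47 to -0.05), with an FDR of 0.038 in the Audic-Claverie test. The intervals of Tjp1 and F11r lie inside a 1.5-fold change in either direction.

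**Figure D2:**
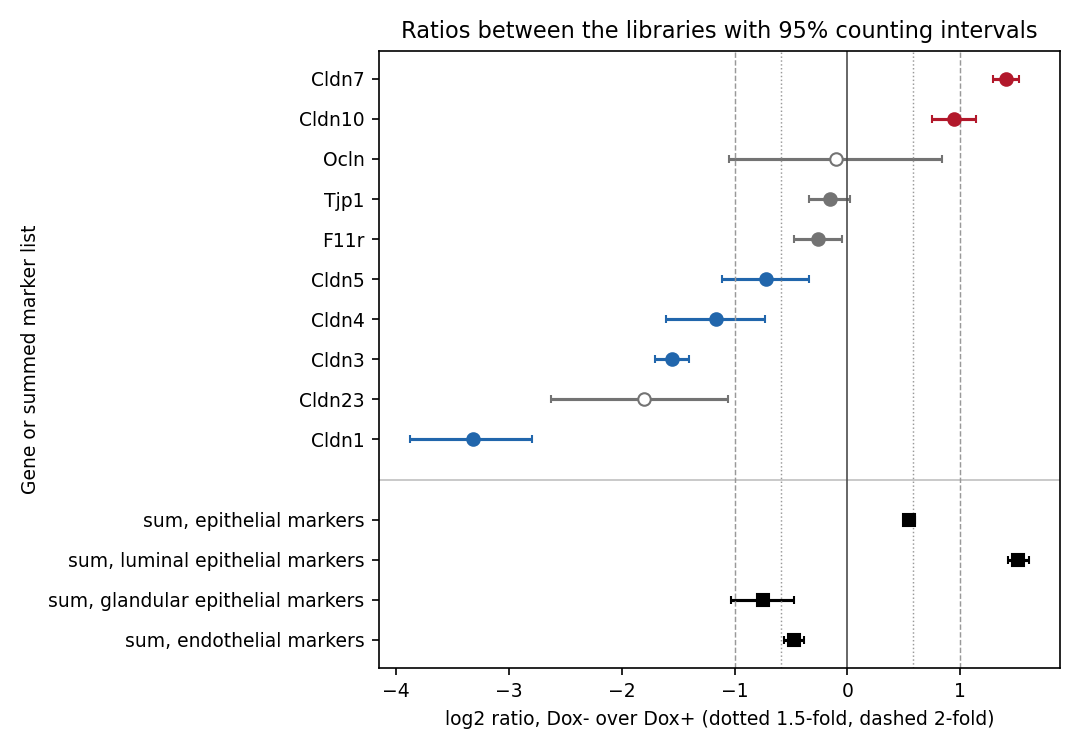
Log2 ratio of Dox- over Dox+ for the 10 genes (circles) and for the summed copies of 4 marker lists (squares), with exact 95% counting intervals. Red and blue circles were called higher and lower, grey circles were not called, and open circles had fewer than 200 combined copies. Among the circles, Cldn1 lies farthest left at -3.31 and Cldn7 farthest right at 1.40. The sum of the epithelial markers lies at 0.55, and that of the luminal epithelial markers lies right of Cldn7 at 1.51.

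In the order of the log2 ratios, Cldn1 (-3.31) came first and did not overlap the next gene, Cldn23 (-1.80). From Cldn23 through Cldn3 (-1.55), Cldn4 (-1.16), Cldn5 (-0.72), F11r, Tjp1 and Ocln to Cldn10 (0.95), each gene's interval overlapped that of its neighbour in the order. Cldn10 and Cldn7 (1.40) did not overlap. The wide interval of Ocln links the lower genes to Cldn10, since without it F11r and Tjp1 would stand apart from Cldn10.

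The summed tags of the 7 claudins differed little between the libraries, with 3391 copies in Dox+ and 3579 in Dox-. This was 566.5 and 612.4 TPM, a ratio of 1.08 (1.03 to 1.13). The make-up of this sum differed more. Cldn3 held 43.7% of the tags (42.0 to 45.4) in Dox+ and 13.8% (12.7 to 14.98) in Dox-. Cldn7 held 25.9% (24.4 to 27.4) in Dox+ and 63.2% (61.6 to 64.8) in Dox-. The share of Cldn1 went from 9.91% to 0.922%, that of Cldn4 from 4.39% to 1.82% and that of Cldn23 from 2.01% to 0.531%, while Cldn10 went from 9.64% to 17.2%. These are shares of tags without a correction for length. Per kilobase of the longest annotated transcript, Cldn3 held 50.8% in Dox+ and 15.7% in Dox-, and Cldn7 held 28.3% and 67.9%. The copies were read as tag counts, for which length need not matter. Dividing by length would apply if they came from fragmented mRNA, as the labels describe.

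**Figure D3:**
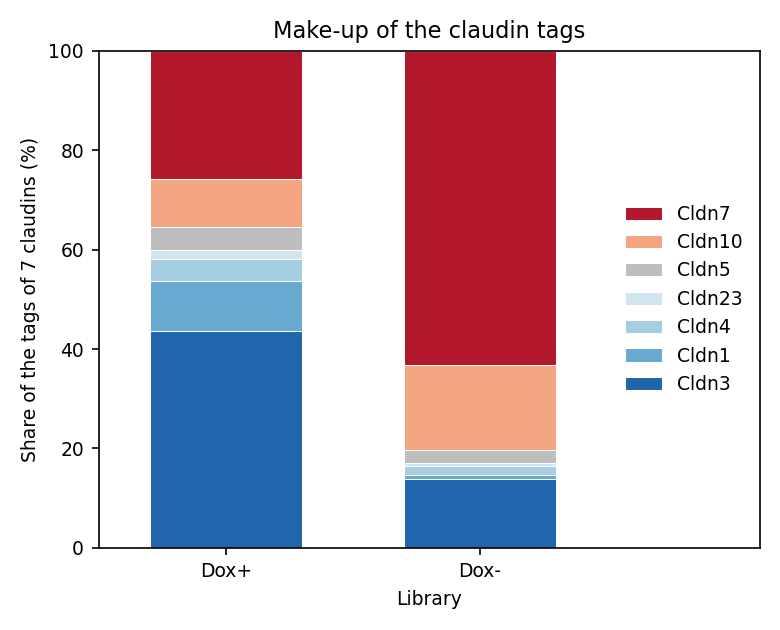
Share (%) of the tags of the 7 claudins that each gene held in the Dox+ and the Dox- library. Cldn3 takes 43.7% of the Dox+ bar and 13.8% of the Dox- bar, and Cldn7 takes 25.9% and 63.2%.

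A ratio of a pair of genes in the same library does not depend on library size. For each copy of Cldn3 there were 0.592 copies of Cldn7 in Dox+ and 4.58 in Dox-, a 7.74-fold change (6.80 to 8.82). For each copy of Cldn1 there were 2.61 copies of Cldn7 in Dox+ and 68.6 in Dox-, a 26.3-fold change (18.2 to 39.1). Cldn10 against Cldn3 changed 5.64-fold (4.75 to 6.70), from 0.221 to 1.24. Against the scaffold Tjp1, Cldn7 went from 1.66 to 4.90 copies and Cldn3 from 2.81 to 1.07. These pairs were chosen after their values were seen, and the intervals cover counting error only.

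Epithelial markers moved between the libraries as well. Of 15 listed markers, 13 were higher and 2 lower in Dox-, and 5 of the 12 with 200 copies were called higher and none lower, beside 15.2% and 14.7% of all genes tested. The summed level of the 15 markers was 1101 TPM in Dox+ and 1612 in Dox-, a ratio of 1.46 (1.42 to 1.51). Epcam, an epithelial adhesion molecule, rose from 467 to 821 copies, and Cdh1, the epithelial cadherin, had 703 and 909. Elf3, an epithelial transcription factor of the ETS family, rose from 185 to 1083, the largest fold change of the list. Krt19 with 1554 and 2046 copies and Krt8 with 1330 and 1481 had the most copies, and neither was called. The 2 lower markers were Spint1, with 93 and 70 copies, and Spint2, with 759 and 648. All 4 luminal epithelial markers were in the table and summed to 216.0 and 617.2 TPM, with Wnt7a, Muc1 and Ltf called higher and Lpar3 at 80 and 45 copies. Of 4 glandular markers 2 were in the table, Foxa2 with 35 and 34 copies and Cxcl15, which fell from 254 to 134. Per copy of Epcam, Cldn3 had 3.17 copies in Dox+ and 0.602 in Dox-, a 5.27-fold fall (4.51 to 6.16), and Cldn1 a 17.9-fold fall (12.2 to 26.9). Cldn7 per copy of Epcam went from 1.88 to 2.76, a change of 1.47 (1.28 to 1.69). Cldn10 per copy of Epcam went from 0.700 to 0.749, a change of 1.07 whose interval, 0.894 to 1.28, includes 1. Per copy of Cdh1, Cldn3 fell 3.88-fold (3.36 to 4.48) and Cldn1 fell 13.2-fold (9.04 to 19.7). Cldn7 per copy of Cdh1 rose 1.996-fold (1.76 to 2.27). The size of these changes thus depended on the marker chosen. By clean tags, Cldn10 rose 1.93-fold, Epcam 1.80-fold and Cdh1 1.32-fold. Cldn10 per copy of Cdh1 was not tested, so the interval that includes 1 holds for Epcam alone. With the summed epithelial markers as the scale in place of the clean tags, the log2 ratio of Cldn7 was 0.85 and it was called higher, and that of Cldn10 was 0.40 and it was not called. On the same scale Tjp1 (-0.71) and F11r (-0.81) were called lower. This scale moves every gene down by 0.55, and 2973 of all 6547 genes tested were then called lower and 222 higher. The part of the epithelial markers in these results was not tested.

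The other cell types that the sample could hold were listed by their markers in the same way. Of all genes tested, 15.2% were called higher and 14.7% lower. The 10 smooth muscle markers were all lower in Dox-, with a summed ratio of 0.689, and 4 of the 8 with 200 copies were called lower. Of the 8 stroma markers 5 were lower and 3 higher, with 3 called lower, 1 called higher and a median log2 ratio of -0.25. Their summed ratio was 1.17, and Col1a1, a fibrillar collagen gene, gave 23017 of 50790 copies in Dox+ and 33696 of 57874 in Dox-. The 7 leukocyte markers summed to 81.9 and 120.8 TPM, and the 4 red cell markers found to 11.03 and 35.6. Of these 4, Alas2 went the other way, with 21 and 9 copies. The 4 mesothelial markers summed to 69.0 and 31.1, the 4 adipocyte markers to 82.7 and 55.3, and the 2 oviduct markers to 4.68 and 4.62. Wt1 gave 325 of the 413 mesothelial copies in Dox+ and 157 of 182 in Dox-. The oviduct markers went opposite ways, Foxj1 with 3 and 25 copies and Ovgp1 with 25 and 2. The part of these cell types in the claudin counts was not tested.

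The other genes of the junction did not move in 1 direction. A list of 53 further tight junction genes, written by role, had 43 genes in the table and 18 with at least 200 copies. Of these 18, 6 were called higher and 4 lower in Dox-, beside 15.2% and 14.7% of all genes tested. Their median log2 ratio was 0.30, where the median of all genes tested was 0.03. Of the 60 further genes that the table assigns to the apical junction complex, 30 had 200 copies, with 9 called higher, 8 lower and a median of 0.16.

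Of 17 further claudins, 7 were in the table, and 5 of these were higher and 2 lower in Dox-. Cldn12 alone had 200 copies and was not called, with 96 copies in Dox+ and 126 in Dox-. Cldn2, a pore-forming claudin that lets cations and water pass, had 16 and 111 copies, a ratio of 7.11 (4.19 to 12.9). Cldn15, also known as a cation pore, had 55 and 110 copies, Cldn8 had 65 and 60, and Cldn11 had 5 and 7. Cldn9, with 20 Dox+ copies, went undetected in Dox-. Taking 3 copies (0.513 TPM) as the floor of that library gives 6.51-fold lower, which is set by the floor and not a measured level. The exact interval, from the undetected count itself, reaches down to 4.82-fold. Cldn6 had no copies in Dox+ and 4 in Dox-. With these 7 genes added, the 14 claudins of the table summed to 609.4 and 683.9 TPM, a ratio of 1.12 (1.07 to 1.17). Cldn12 excepted, these claudins were below the limit of 200 copies.

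Of 5 immunoglobulin adhesion proteins beside F11r, 3 had 200 copies. Of these, Cxadr was called higher and Jam2 and Jam3 lower, where 15.2% and 14.7% of all genes tested were called. Jam2 (JAM-B), which binds Jam3 (JAM-C) between cells, went from 1007 to 32 copies, 30.7-fold lower (21.6 to 45.2). Jam3 went from 245 to 103 copies, 2.32-fold lower (1.84 to 2.95). Cxadr, the coxsackievirus and adenovirus receptor, rose from 104 to 166 copies. Under the limit of 200, Esam had 93 copies in Dox+ and 38 in Dox-, and Igsf5 had 34 and 65. JAM-A thus had a log2 ratio of -0.26 beside -4.94 for JAM-B and -1.22 for JAM-C, and the 3 intervals do not overlap.

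Of 16 scaffolds beside Tjp1, 9 had 200 copies, with 4 called higher and 1 lower, where 15.2% and 14.7% of all genes tested were called. Tjp3 (ZO-3), which is found in epithelia, went from 56 to 249 copies, 4.55-fold higher (3.40 to 6.20). Cgnl1 (paracingulin) rose from 675 to 1130 copies, Mllt4 (afadin) from 133 to 231 and Amotl1, of the angiomotin family, from 254 to 404. Magi1, a membrane guanylate kinase scaffold, fell from 162 to 64 copies. Csda, the transcription factor ZONAB that binds ZO-1, had the most copies of the list, 1135 and 1340, and was not called.

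Of the remaining genes, both MARVEL proteins related to occludin were low, Marveld2 (tricellulin) with 28 and 45 copies and Marveld3 with 7 and 27. Of the 3 angulins, which mark corners where 3 cells meet, Lsr had 423 and 532 copies and was not called, and Ildr1 had 111 and 56. Of 10 polarity genes, Prkci, an atypical protein kinase C, rose from 245 to 460 copies, and Pard3b, a relative of the polarity protein Par3, fell from 144 to 62. Crb3 with 139 and 112 copies and Llgl1 with 153 and 165 were not called. The junction genes called between 1.5-fold and 2-fold, those not called other than Csda, and those under 200 copies were named after their values were seen. The study itself listed Cldn1 and Jam2 among its most changed genes in these libraries.

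**Figure D4:**
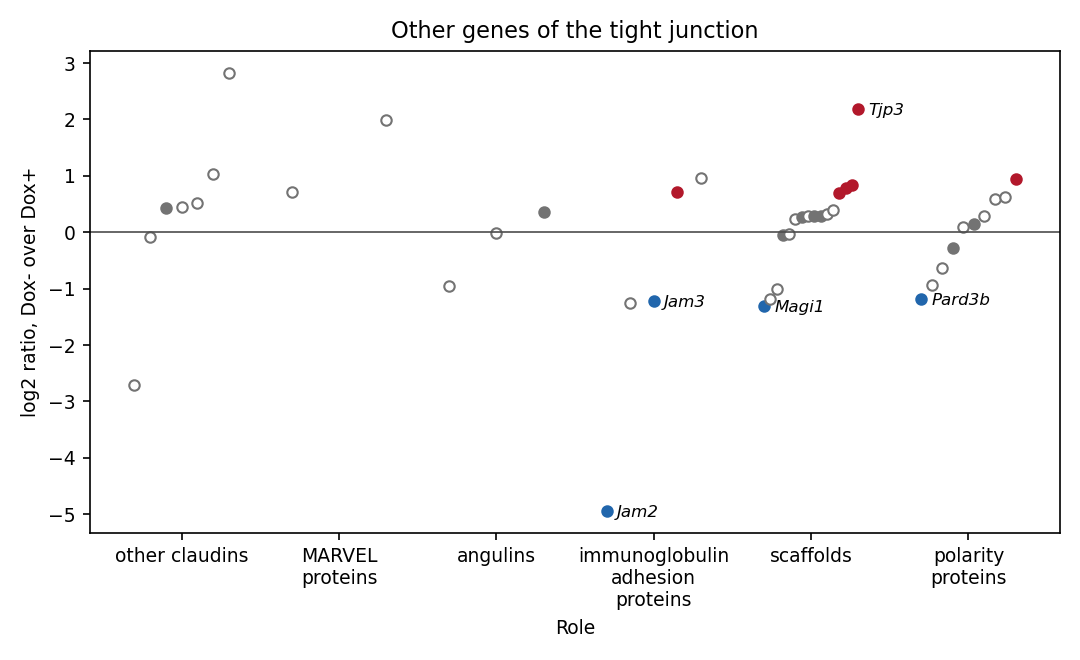
Log2 ratio of Dox- over Dox+ for 43 other tight junction genes by role. Red and blue points were called higher and lower, grey points were not called, open points had fewer than 200 combined copies, and names are given at fold changes of at least 2 for called genes. Jam2 lies lowest at -4.94 and Tjp3 is the highest called gene at 2.19.

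The calls rest on counting error. In edgeR's negative binomial test, run with a spread of 0.2 (coefficient of variation) among pools, Cldn1, Cldn3 and Cldn7 were called and Cldn4, Cldn5 and Cldn10 were not, where 321 of 6547 genes were called. With 0.4 assumed, 33 of 6547 genes were called and none of the 10 genes was called by edgeR, where Cldn1 was the 1 gene with an unadjusted p under 0.05, against 6 genes called in the Audic-Claverie test and 6 with Fisher's exact test.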

How the data were processed

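Total RNA of 3 pooled uteri per group was profiled by DGE in 1 Dox+ and 1 Dox- library. The authors removed low quality tags, tags holding adaptor alone and tags with 1 copy, and clean tags were aligned to mouse reference transcripts (mm9). The submitters' processing notes name CASAVA, and the aligner is not given in the sources used here. The labels describe mRNA fragmentation while the paper describes tag profiling, and copy numbers were taken here as counts of tags. The deposited counts are unambiguous tags per gene, without normalization. For the deposited TPM values, the authors gave copies per 1000000 clean tags, without length correction, and a gene without a tag carries 0.01. Clean tags per library were recovered from counts and TPM, which matched for 14050 genes in Dox+ and 13948 in Dox- within rounding. The authors' fold change, P-value and FDR columns were not used.

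Counts were compared as in the report, with clean tags as library size, over all genes. For the minimum change, the study's results name a fold of 1.5, used here, and its methods an absolute log2 ratio above 0.5, which was run as an alternative. The log2 rule gave 1231 genes higher and 1168 lower, nearly the counts that the study reports, while the 1.5-fold rule gave 994 and 961. Intervals are exact (Clopper-Pearson for ratios and shares, conditional for ratios of ratios, Poisson for levels) at 95% and cover counting error only. Copies of 3 or fewer were set to 3. The genes named are the 10 tight junction genes, the listed junction genes called at 2-fold or with the most copies, Vegfa and markers. Junction genes outside this rule were named after their values were seen. Genes and lists were chosen with earlier results of these data known, and the motifs, the apical junction complex term and the scaling to epithelial markers were chosen after values were seen. Positions and transcript lengths are from GENCODE on NCBIM37 (mm9). The methods were tested on simulated Poisson counts without spread between pools, so that test covers counting error only. Python 3.11.15, numpy 2.4.6, scipy 1.17.1, pandas 2.3.3, matplotlib 3.10.9, R 4.3.3 and edgeR 4.0.16 were used.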

Additional observations from a re-analysis of the deposited data

How the results depend on the processing

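With 1 library per group, the spread between mice could not be estimated and no library could be left out. No paired analysis was possible because each group is 1 library. With library sizes from the counted tags, TMM or median ratios, and with a pseudocount of 1, all 40 recomputed log2 ratios of the 10 genes stayed within their intervals and shifted by at most 0.053. A changed library size moves every gene by the same amount, so the 40 ratios are not 40 separate checks. The calls of the 10 genes at a fold change of 1.5 numbered 3 with an assumed coefficient of variation of 0.2 and 0 with 0.4, and at a fold change of 2 they numbered 0 with 0.4. Of all 6547 genes tested, 1955 were called in the reported setting, 321 with 0.2 and 33 with 0.4. The calls among the other tight junction genes numbered 10, and became 21 without a limit on copies, 17 from 100 combined copies, 2 with a coefficient of variation of 0.2 and 1 with 0.4. Over all genes, 4121 of 14678 were called without a limit and 2810 of 8856 from 100 copies. Scaling to the summed epithelial markers, chosen after seeing the data, gave log2 ratios of -2.10 for Cldn3, -1.71 for Cldn4, -1.27 for Cldn5, 0.85 for Cldn7, 0.40 for Cldn10, -0.71 for Tjp1 and -0.81 for F11r, and moved the median of the other tight junction genes to -0.25 and that of all genes tested to -0.52. An absolute log2 ratio above 0.5 is the cutoff in the study's methods and was added here after seeing the data. It gave the same 6 of the 10 genes and 1231 genes higher and 1168 lower over all genes, against 994 and 961. Depth limits Ocln and Cldn23 most, with 42 and 87 combined copies.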
